A study of Mus musculus with 14 samples.

Results

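The 2 normal tissues of the series were compared, colon against small intestine, to find how their expression profiles differ. The 6 samples labelled colon or small intestine, of 14 in the series, were taken, 3 of each. All 6 are whole tissue of C57BL/6J mice by the labels, whereas the study's description of its methylation comparison names mucosa of colon and small intestine. The study's methods describe adult wild-type animals but also name Apc Min/+ mice as a source of normal colon. The study's own sample list places a colon sample under an Apc Min/+ mouse (which carries a mutated copy of the tumour suppressor gene Apc), whereas the labels give C57BL/6J for every colon sample, and which array this would be is not stated. Each RNA was labelled with Cy3 and hybridized to 1 single-colour Agilent SurePrint G3 Mouse array. The arrays are called colon 1 to 3 and small intestine 1 to 3 after their replicate numbers. Values are scaled log2 signals, that is, the log2 of the background-subtracted signal minus the 75th percentile of the array, so that a gene at 0 lies at that percentile. The labels do not say which segment of the small intestine or colon was taken.

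The small intestine digests and absorbs food. Its villi are covered by enterocytes whose brush border carries disaccharidases and peptidases, which assemble dietary fat into chylomicrons, and Paneth cells at the base of its crypts secrete antimicrobial defensins. The distal segment, the ileum, reclaims bile acids and cobalamin. The colon has no villi and few or no Paneth cells, and it absorbs water and salt, secretes bicarbonate and mucus and takes up short-chain fatty acids made by bacteria. Hox genes of the higher paralogue groups are known to be expressed in the posterior part of the body, including the hindgut that gives rise to most of the colon.

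Colon 3 stood apart from its group. Over 23934 probes its correlation was 0.963, 0.956 and 0.941 with small intestine 1, 2 and 3, against 0.921 and 0.919 with colon 1 and 2. Between colon 1 and 2 it was 0.979. The small intestine arrays had correlations of 0.970 to 0.984 among themselves. Colon 3 was also the dimmest array, with a 75th percentile of 275.6 signal units against 479.8 to 956.8 on the other 5, and 46.8% of its probes were well above background against 49.2% to 58.2%. Xist, the RNA of the inactive X chromosome, was at 0.81, 0.51 and -5.91 on colon 1, 2 and 3 and at -7.34, -0.49 and -1.23 on small intestine 1, 2 and 3. Eif2s3y, a gene of the Y chromosome, was at -6.98, -7.02 and 2.73 in colon and at 2.61, -6.28 and -6.27 in small intestine. These 2 genes were chosen after their values were seen. Colon 3 and small intestine 1 had low Xist and high Eif2s3y, the pattern of male tissue, and the other 4 arrays the pattern of female tissue. Each group thus held both patterns with colon 3 included, but colon 1 and 2 both had the female pattern. Without colon 3 sex was therefore uneven between the groups, and its part in the results was not tested. The arrays lay on 2 slides, small intestine 1 and 3 and colon 2 on the first and small intestine 2 and colon 1 and 3 on the second. Each result is given with all arrays and with colon 1 and 2 alone. The median of 8 epithelial genes was 7.43 and 7.56 on colon 1 and 2 and 7.98 to 8.47 on the other 4 arrays. Of the 8 genes, 5 lay below every small intestine array on both colon 1 and 2, where 33.6% of all genes tested did. In whole tissue, fewer cells of a type and less RNA per cell cannot be told apart.

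With all 6 arrays, 1 gene was higher in colon and 1 was lower, of 20651 genes tested. The genes were B3galt5, a galactosyltransferase that extends carbohydrate chains, and Defa21, an alpha-defensin of Paneth cells. By the thresholds of the study, a call needed a difference of 1.2 or more on the log2 scale and a limma p, adjusted by Benjamini-Hochberg, no higher than 0.01 in any probe of the gene. Each direction thus held 0.00484% of the genes. Unadjusted p-values were under 0.05 for 6416 of 27284 probes, 2696 of them higher in colon. The study itself reports more genes as different between small intestine and colon than were called here. The reason for this gap was not tested.

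B3galt5, whose probe lies on chromosome 16 from 96541170 to 96541229 (build NCBI37/mm9, as in the scanner output), was at 5.0, 5.47 and 4.61 on colon 1, 2 and 3 and at -3.15, -2.40 and -2.82 on small intestine 1, 2 and 3. Every colon array, colon 3 included, was far above every small intestine array. The log2 difference was 7.82 (limma adjusted p = 0.00178), and within the slides it was 8.46 and 7.20. Defa21, on chromosome 8 from 22166019 to 22166078, was at -6.82, -7.38 and -5.75 in colon and at 9.62, 9.60 and 7.57 in small intestine. It was not well above background on any colon array. Defa21 was at least 11020-fold lower in colon (limma adjusted p = 0.00178). Over the alternatives the limma adjusted p lay between 2.18e-05 and 0.0435 for B3galt5 and ran from 1.21e-05 to 0.0532 for Defa21. The direction of B3galt5 was kept throughout, while that of Defa21, which entered the test through small intestine alone, was fixed. Both calls were lost with the slide or the replicate numbers as a block and without small intestine 1 or 2 or colon 1 or 2. That of B3galt5 was also lost without small intestine 3. Colon 3 decided these counts, since without it 857 genes were higher and 947 lower.

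With colon 1 and 2 against the 3 small intestine arrays, 22601 genes were tested, of which 857 (3.79%) were higher in colon and 947 (4.19%) lower. The median log2 difference over all 30521 probes was -0.0427, and 12274 of them had an unadjusted p under 0.05, 5748 higher and the rest lower. Genes called through their brightest probe, 1627 in all, differed by at least 1.38 on the log2 scale, with a median size of 2.72 for those higher and 3.06 for those lower. The counts depended on single arrays and on the slide. They fell to 172 higher and 268 lower without small intestine 2, to 260 and 421 without small intestine 3, to 263 and 352 without colon 2, to 115 and 192 without colon 1, and to 332 and 457 with the slide as a block. Without small intestine 1 they were 848 and 1055.

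The genes with the largest differences were taken among those that passed, that were well above background and not saturated on all 5 of these arrays, that did not overlap between the groups and whose symbol is in the RefSeq table. On the colon side they were Car1, Aqp8, Saa2, Sycn, Best2, B3galt5, Wfdc2, Saa1, Sult1a1 and Sval1. Car1 is a carbonic anhydrase, which interconverts carbon dioxide and bicarbonate. Its probe, on chromosome 3 from 14767486 to 14767545, was at 7.17 and 7.73 on colon 1 and 2, at -3.10 on colon 3 and at -3.04, -3.13 and -2.49 in small intestine. Colon 3 lay among the small intestine arrays. Without it the difference was 10.34 on the log2 scale (limma adjusted p = 9.96e-05, standard error 0.31), and with it 6.82 (adjusted p = 0.201). Sycn encodes syncollin, a protein first known from the zymogen granules of the pancreas, and was at 9.31, 7.10 and -0.11 in colon against -0.08, -0.61 and -0.15 in small intestine (log2 fold change 8.49 with colon 1 and 2). Wfdc2, a small secreted protein with protease inhibitor domains, was at 6.90, 5.15 and -0.06 against -1.88, -1.93 and -1.94 (7.94). Colon 3 was nearer to small intestine for Car1, Aqp8, Sycn, Best2, Wfdc2, Sult1a1 and Sval1, and nearer to colon 1 and 2 for B3galt5, Saa1 and Saa2.

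On the small intestine side Defa1, an alpha-defensin named by the annotation of the array alone, differed more than these, by -12.61. The genes reported by the same rule were Defa31, Fabp1, Mttp, Reg3a, Adh6a, Bcl2l15, Bst1, Ocm and Sis. Defa31, another alpha-defensin, was at -3.29, -4.29 and 10.84 on colon 1, 2 and 3 and at 6.87, 7.53 and 6.24 in small intestine, a log2 difference of -10.67 without colon 3 (limma adjusted p = 0.000219, standard error 0.48) and of -5.79 (adjusted p = 0.39) with it. Here colon 3 was the highest of the 6 arrays. Reg3a, a lectin of the family of antimicrobial Reg3 proteins, was at -4.34, -3.01 and 7.52 in colon and at 5.95, 6.33 and 5.62 in small intestine (log2 fold change -9.64). Bcl2l15, a member of the Bcl-2 family of apoptosis regulators, was at -3.30, -4.10 and 8.74 in colon and at 6.50, 5.94 and 5.002 in small intestine (-9.52). For these 3 genes colon 3 exceeded every small intestine array, and for all 9 it was nearer to small intestine than to colon 1 and 2. Adh6a, an alcohol dehydrogenase, varied within small intestine, at 4.51, 8.11 and 8.72. The selection without overlap fixed the direction of these 19 genes within each slide, so only the sizes are given. For the genes higher in colon, the within-slide differences ran from 6.08 to 10.50 on the first and 7.11 to 10.30 on the second. For the others they ran from -8.61 to -10.85 and from -8.56 to -12.15.

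**Figure D1:**
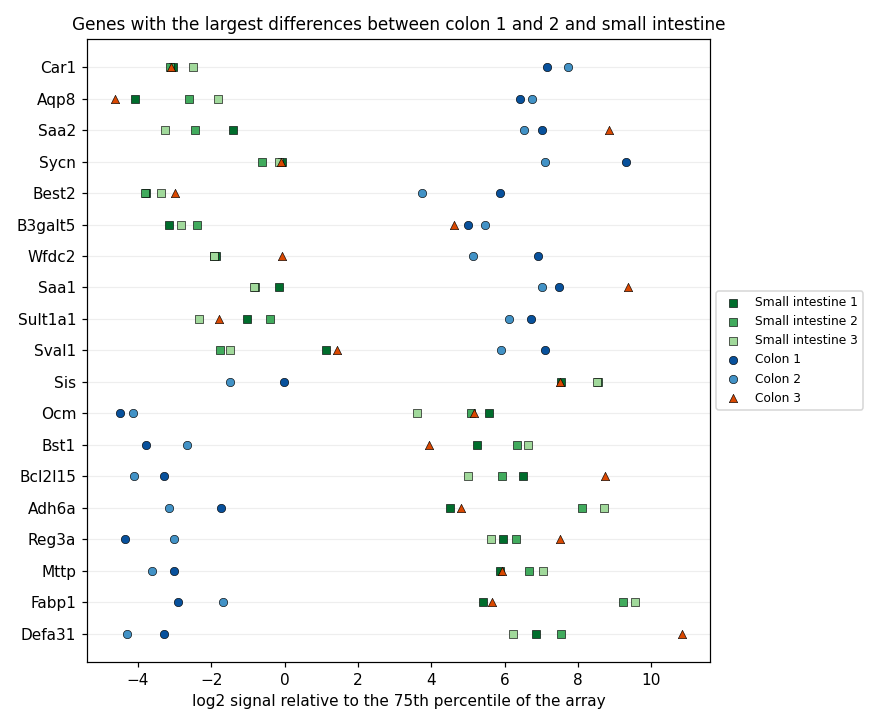
Scaled log2 signal (horizontal axis) of 19 genes with large differences between colon 1 and 2 and small intestine, among genes with a RefSeq symbol that were well above background and unsaturated on these 5 arrays without overlap, with 1 point for each of the 6 arrays and no averaging. Circles are colon 1 and 2, the triangle is colon 3 and squares are small intestine. Colon 3 lies with colon 1 and 2 for B3galt5, Saa1 and Saa2 and nearer to the small intestine arrays for the other 16 genes.

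Several genes were called against a tissue in which they were not well above background, and their difference is then a bound, computed against the lowest signal well above background. Foxd2, a forkhead transcription factor, was at 4.34, 4.39 and -5.77 in colon and at -5.42, -6.13 and -5.81 in small intestine, at least 468-fold higher on colon 1 and 2. Slc6a14, a transporter of neutral and cationic amino acids, was at 2.76, 2.48 and -0.82 against -7.27, -6.42 and -6.66, at least 140-fold higher. It was well above background on all colon arrays, colon 3 included, and on no small intestine array. Nxpe2 was at least 158-fold higher and Ccn3, a secreted matricellular protein, at least 91.6-fold higher, and neither was well above background on colon 3. A probe without a gene symbol, on chromosome 3 from 21691775 to 21691834, was at least 69.7-fold higher. On the other side stood Defa39, Defa26, Defa21 and Defa-ps1, at least 19940-fold, 15220-fold, 14990-fold and 14780-fold lower in colon 1 and 2, and a further probe without a symbol, at least 19210-fold lower. Defensin genes are near-identical copies in a cluster on chromosome 8, so a probe may read several of them, and their values are not independent. Other genes were well above background on only some arrays of the dimmer tissue. On 1 of colon 1 and 2 these included Lct, Treh, Apoc3, Npc1l1, Gata4, Defa3 and Defa23. On 1 small intestine array they included Ms4a1, Cxcl13, Fcmr, Cr2, Insl5, Hoxd4 and Hoxb9. The differences of all these genes include signal near background.

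**Figure D2:**
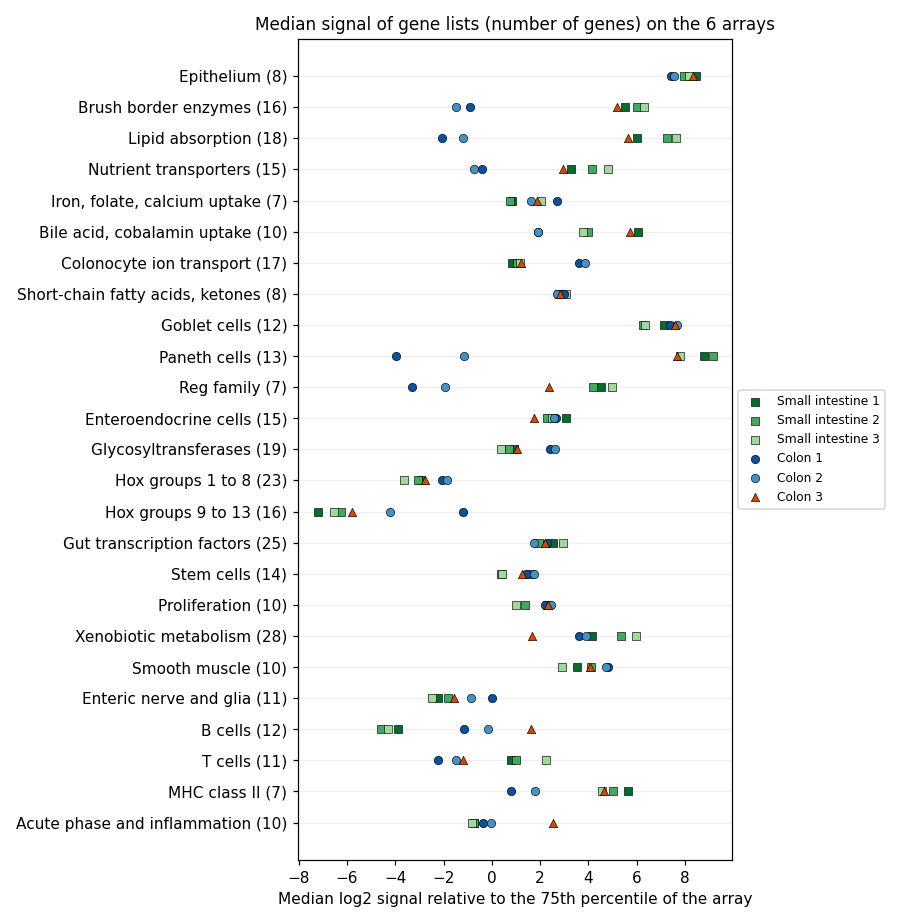
Median scaled log2 signal over the genes of 25 lists (number of genes in brackets) on each of the 6 arrays, with circles for colon 1 and 2, triangles for colon 3 and squares for small intestine. For brush border enzymes the medians were -0.92 and -1.47 on colon 1 and 2, 5.20 on colon 3 and 5.50 to 6.28 in small intestine. For B cells colon 3 was highest, at 1.63.

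Most of the listed genes of digestion and absorption were lower in colon 1 and 2. Over all genes tested 4.19% were lower and 3.79% higher, the shares against which the counts of this and the following lists stand. Of 16 digestive enzymes of the brush border, 14 were lower and 0 higher, with a median log2 difference of -7.63 over the 15 tested. Of 18 genes of lipid absorption 15 were lower, with a median of -7.94, and of 15 transporters of sugars, peptides and amino acids 12 were lower and 1, Slc6a14, was higher, with a median of -4.16. With all arrays none of these genes passed the thresholds, while the medians were -4.97, -5.51 and -3.15 and 11, 15 and 11 genes of the 3 lists had an unadjusted p under 0.05. Colon 1 and 2 lay below every small intestine array for 14, 17 and 14 genes of the lists, where 33.6% of all genes tested did so. With colon 3 included this held for 9, 11 and 4 genes, against 17.0% of all genes. Mme, Apoa1, Apoa4, Abcg8, Slc2a2, Slc2a7 and Slc6a19 were not well above background on colon 1 or 2. They entered the test through small intestine alone, which fixed their direction, so these counts partly follow from the filter. Lct, Treh, Apoc3 and Npc1l1 also entered through small intestine alone.

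Lct, the lactase that splits milk sugar, was at -5.01 and -5.09 on colon 1 and 2, at 3.74 on colon 3 and at 5.90, 9.38 and 9.39 in small intestine. The log2 difference was -13.27 without colon 3 (limma adjusted p = 0.00129, standard error 1.07) and -10.34 (adjusted p = 0.0928) with it. Sis, the sucrase-isomaltase, was at -0.02, -1.48 and 7.51 in colon and at 7.54, 8.54 and 8.52 in small intestine, with log2 differences of -8.95 (limma adjusted p = 0.000476, standard error 0.53) and -6.20 (adjusted p = 0.164). Colon 3 was next to small intestine 1 for Sis, but below every small intestine array for Lct. Treh, the trehalase, and Mme, the peptidase neprilysin, were lower as well, Treh by -11.51 and Mme at least 373-fold, since it was not well above background on colon 1 or 2. The exceptions of the list were Mep1a, a meprin subunit, at 5.90, 6.12 and 6.66 in colon and 8.43, 6.08 and 5.09 in small intestine, and Tmprss15, the enteropeptidase that activates trypsin, which was not well above background on any of the 5 arrays.

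Among lipid genes, Apoa1, an apolipoprotein of chylomicrons and of high-density lipoprotein, was at -6.17, -6.00 and 6.86 in colon and at 8.09, 8.98 and 9.10 in small intestine, at least 13030-fold lower on colon 1 and 2. Apoa4 was at least 6487-fold lower, and Apoc3 had a log2 fold change of -13.08. Fabp1, a carrier of fatty acids in the cytosol, was at -2.91, -1.68 and 5.65 in colon and at 5.43, 9.24 and 9.56 in small intestine (-10.37, standard error 1.26, limma adjusted p = 0.00431). Mttp, which loads lipid onto apolipoprotein B, was at -3.01, -3.62 and 5.94 against 5.88, 6.68 and 7.05 (-9.85). For Fabp1, Apoa4 and Apoc3, colon 3 and small intestine 1 stood at similar values, below small intestine 2 and 3. Plin2, which coats lipid droplets, was the member with the smallest difference, at 4.47, 3.70 and 3.18 in colon and 4.28, 4.43 and 4.54 in small intestine (-0.33, adjusted p = 0.432). Fabp2, the other intestinal fatty acid carrier, was lower by -2.93 and still at 6.71 and 7.49 on colon 1 and 2.

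Of the transporters, Slc6a19, which takes up neutral amino acids, was at -7.08, -5.38 and 4.64 in colon and at 4.80, 4.89 and 4.83 in small intestine, at least 884-fold lower on colon 1 and 2. The glucose transporter Slc2a2 was at -6.74, -7.44 and 0.13 against 0.03, 4.15 and 4.82, at least 246-fold lower. For Slc2a2, too, colon 3 and small intestine 1 were alike. Slc7a9, of the cystine transporter, fell by 7.01 on the log2 scale (adjusted p = 0.000111), and its small intestine values of 6.54, 6.37 and 6.38 hardly varied.

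The 250 bases before the annotated start of 3 of these genes (RefSeq, build GRCm38.p6) are shown because Cdx2 and the GATA factors are known regulators of enterocyte genes. In capitals are the letters AGATAA, read by GATA factors, and TTTATNG, read by CDX factors, on either strand. None of the matches overlaps another.
Sis promoter (chr3:72967864-72968113, minus strand, 1 CDX match): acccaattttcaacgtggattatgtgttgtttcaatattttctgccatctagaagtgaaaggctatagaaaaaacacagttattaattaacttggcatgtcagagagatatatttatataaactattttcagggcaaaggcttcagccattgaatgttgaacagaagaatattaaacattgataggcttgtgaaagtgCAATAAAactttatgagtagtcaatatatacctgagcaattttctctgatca
Lct promoter (chr1:128328319-128328568, minus strand, 2 GATA matches): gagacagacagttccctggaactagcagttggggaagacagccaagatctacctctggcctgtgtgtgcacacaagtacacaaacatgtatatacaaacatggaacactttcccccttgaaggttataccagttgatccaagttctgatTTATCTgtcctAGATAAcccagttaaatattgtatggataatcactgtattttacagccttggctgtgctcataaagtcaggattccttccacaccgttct
Fabp1 promoter (chr6:71199629-71199878, plus strand, 3 CDX matches): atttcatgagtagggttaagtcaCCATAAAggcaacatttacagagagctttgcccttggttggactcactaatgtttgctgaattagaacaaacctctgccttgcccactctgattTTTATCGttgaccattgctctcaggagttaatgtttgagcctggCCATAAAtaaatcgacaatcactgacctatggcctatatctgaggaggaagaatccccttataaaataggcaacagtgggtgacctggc
Of the 41 genes of the 3 lists that were lower in colon 1 and 2, 35 had a promoter in the table. GATA letters were found in 10 of them and CDX letters in 10 (28.6% each), against 11.4% and 11.3% of the promoters of all 27025 genes. These are matches of letters, not measured binding sites.

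Uptake of bile acids and cobalamin marks the distal small intestine. Of 10 genes of these processes 5 were lower in colon 1 and 2 and 0 higher (median -3.09), against 4.19% and 3.79% of all genes. Cubn and Amn, the receptor pair for cobalamin bound to intrinsic factor, were lower by -7.41 and -5.97. Cubn was at -0.15, -1.43 and 3.48 in colon and at 6.79, 6.72 and 6.36 in small intestine, with colon 3 between the groups. Slc51a, a subunit of the exporter that passes bile acids to the blood, was at 4.79, 4.55 and 9.66 against 9.03, 7.59 and 7.95 (-3.52).

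Fabp6, the cytosolic bile acid carrier of the ileum, was at 1.84, 1.40 and 11.11 in colon and at 9.93, 1.60 and -1.75 in small intestine. Slc10a2, which takes bile acids up from the lumen, was at 2.57, 2.85 and 6.91 in colon and at 5.54, -1.94 and -2.11 in small intestine. Both genes were chosen after their values were seen, and both were higher on colon 3 and small intestine 1 than on the other 4 arrays. The Fabp6 probe was saturated on small intestine 1, so that 9.93 is a lower limit there and its order against colon 3 was not measured. Neither passed the thresholds with colon 1 and 2 (adjusted p = 0.719 and 0.496). For Apoa4, Fabp1 and Slc2a2, small intestine 1 and colon 3 were below small intestine 2 and 3. Of 7 genes of iron, folate and calcium uptake, typical of the proximal small intestine, 1 was lower, the iron oxidase Heph (-1.83), and 0 were higher. Slc40a1, the iron exporter ferroportin, chosen after its values were seen, was at 4.0, 2.67 and 4.03 in colon and at 0.83, -0.34 and -1.08 in small intestine (3.53, adjusted p = 0.0147). Here colon 3 lay with colon 1 and 2.

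Genes of ion and water transport in colonocytes were higher for 7 of 17 on the array and lower for 0, against 3.79% and 4.19% of all genes. Their median log2 difference was 2.17 over the 16 tested. Besides Car1, the higher genes were the water channels Aqp8 and Aqp4, the sodium channel subunits Scnn1a and Scnn1b, the proton pump Atp12a and the anion channel Best2. Scnn1b was well above background on no small intestine array and Atp12a on 1, so both entered the test through colon alone. Aqp8 was at 6.44, 6.76 and -4.62 in colon and at -4.09, -2.61 and -1.82 in small intestine (9.44, standard error 0.64, limma adjusted p = 0.000743, and 5.70, adjusted p = 0.288, with colon 3). Aqp8 was not well above background on colon 3. Best2 was at 5.87, 3.74 and -3.00 against -3.78, -3.80 and -3.38 (8.46). Slc26a3, the chloride and bicarbonate exchanger, was at 3.67, 3.91 and 2.43 against 3.02, 2.61 and 2.57 and did not pass (1.06, adjusted p = 0.0323). Of these 7 genes colon 3 was nearer to colon 1 and 2 for 1, Aqp4, at 3.66, 4.34 and 2.20 against -0.54, -1.60 and -2.03.

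Secretory cells differed by type. None of 12 goblet cell genes passed, and by limma 7 of them had an unadjusted p under 0.05, where 12274 of all 30521 probes did. Zg16, a lectin of the mucus, was at 8.99, 8.79 and 10.11 in colon and at 9.89, 10.12 and 10.27 in small intestine (-1.21, adjusted p = 0.0182), and Tff3, a trefoil peptide, at 8.36, 7.25 and 9.41 against 9.23, 9.44 and 9.42 (-1.56, adjusted p = 0.0292). Muc2, the main gel-forming mucin, was at 7.20, 8.34 and 6.64 against 6.67, 5.74 and 6.17 (1.57, adjusted p = 0.0477). Retnlb, a secreted goblet cell protein with antibacterial activity, was at 0.80, 7.02 and 7.75 against -0.10, -3.53 and 0.74. It was high on colon 2 and 3 and low on colon 1. Muc2 and Retnlb were chosen after their values were seen.

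Of 13 Paneth cell genes on the array, 10 were lower in colon 1 and 2 and 1 was higher, against 4.19% and 3.79% of all genes. Their median was -7.96. Defa5, Defa21, Defa26 and Habp2 entered the test through small intestine alone, which fixed their direction. Defa3 and Defa23, well above background on 1 of colon 1 and 2, also entered through small intestine alone. Lyz1, the lysozyme of Paneth cells, was at 2.58, 3.04 and 9.44 in colon and at 8.77, 9.29 and 8.15 in small intestine (-5.93, adjusted p = 0.000628). Defa5 was at least 10370-fold lower. On colon 3 Defa1, Defa3 and Defa23 were above every small intestine array, at 11.26, 10.61 and 11.15, whereas Defa21 was at background. The member that was higher, Nupr1, encodes a stress-induced nuclear protein that is not restricted to Paneth cells, and was at 6.39, 6.79 and 4.05 against 3.90, 3.78 and 2.55 (3.18). Of 7 Reg genes Reg3a and Reg3d were lower, and Reg3b and Reg3g, at 10.45 and 10.76 on colon 3, did not pass (adjusted p = 0.0257 and 0.0195).

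Of 15 enteroendocrine genes 5 were lower and 1 higher, where 4.19% and 3.79% of all genes were. Gip, an incretin hormone of the upper small intestine, was at -6.89, -6.93 and 0.89 in colon and at 2.42, 4.59 and 4.62 in small intestine, at least 453-fold lower on colon 1 and 2. Nts, Ghrl, Cck and Sct, which encode neurotensin, ghrelin, cholecystokinin and secretin, were lower by -3.40, -3.24, -3.13 and -2.12. Insl5, a hormone of colonic L cells, was at 4.17, 2.96 and -4.51 against -5.33, -2.66 and -4.88 (7.85, standard error 0.83, limma adjusted p = 0.00286). Colon 3 was again with small intestine. The general granule protein Chga was at 5.07, 5.32 and 2.99 against 4.79, 4.85 and 5.07 (0.29, adjusted p = 0.379). Of 4 genes of guanylin signalling, Guca2b, the uroguanylin, was lower (-5.28) and Guca2a, the guanylin, was at 8.55, 8.79 and 8.46 against 8.80, 8.78 and 8.65 (-0.07, adjusted p = 0.837). Among 5 transmembrane mucins on the array 1 passed, Muc1, at -4.62, -4.56 and -4.53 in colon and at -6.51, -6.25 and -6.64 in small intestine. It was well above background on colon 1 and 2 alone, too dim there for a bound, and its call was kept in 6 of 17 settings, with an adjusted p of up to 0.951. None of 9 claudins tested passed, and 4 had an unadjusted p under 0.05.

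Glycosyltransferases and sialic acid enzymes, which build the sugar chains of mucins and of the cell surface, were higher in colon for 9 of 19 and lower for 1, with a median of 2.30. Of the 9, B3gnt5, Fut2 and Cmah were well above background on 2 small intestine arrays and so entered the test through colon alone. The count thus partly follows from the filter. With all arrays the median was 1.90, B3galt5 passed, and all 3 colon arrays were above every small intestine array for 10 genes, where 12.1% of all genes were. With colon 1 and 2 alone this held for 14 genes, against 26.5%. St6galnac6, a sialyltransferase of gangliosides and other chains, was at 6.86, 7.49 and 6.22 in colon and at 1.28, 1.39 and 2.19 in small intestine (5.55, standard error 0.37, limma adjusted p = 0.0007, and 5.24, adjusted p = 0.0219, with colon 3). B3gnt7 was at 1.67, 0.79 and 0.59 against -2.81, -3.15 and -2.02, and Fut2, which adds fucose in secreted mucus, at 0.66, 1.24 and 1.46 against -3.04, -4.04 and -1.97. Both were chosen after their values were seen. For 7 of the 9 genes colon 3 was nearer to colon 1 and 2, the exceptions being St6gal1 and Gcnt1, a branching enzyme that was not well above background on colon 3, at 2.87, 1.94 and -4.12 against -0.10, -1.35 and -0.73. St3gal4, another sialyltransferase, was lower, at 1.498, 2.60 and -3.38 against 5.63, 5.67 and 6.04 (-3.73, adjusted p = 0.00247), and colon 3 was lower still than colon 1 and 2.

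**Figure D3:**
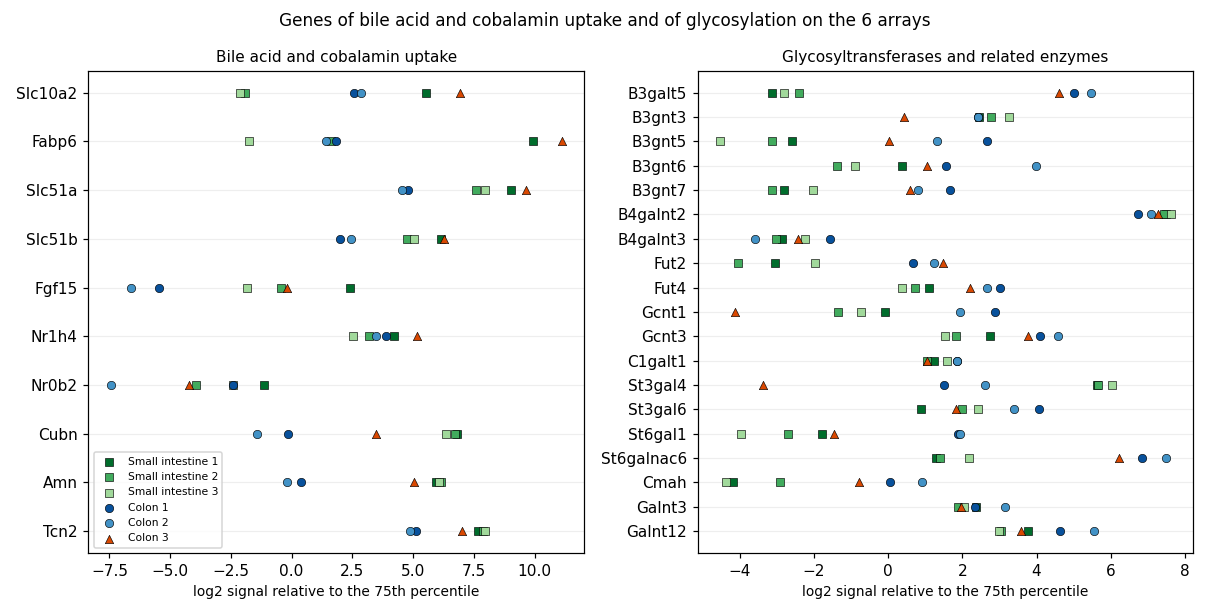
Scaled log2 signal (horizontal axes) of 10 genes of bile acid and cobalamin uptake (left) and 19 glycosyltransferases and related enzymes (right), with 1 point for each of the 6 arrays. Colon 3 (triangle) was at 11.11 for Fabp6 and 6.91 for Slc10a2, small intestine 1 at 9.93 (saturated) and 5.54, and colon 3 lay beside colon 1 and 2 (circles) for B3galt5, B3gnt7, Fut2 and St6galnac6.

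Hox genes were among those higher in colon 1 and 2, where 3.79% of all genes tested were higher and 4.19% lower. Of 23 genes of groups 1 to 8, 7 were higher and 0 lower (median 2.07 over 19 tested), and of 16 genes of groups 9 to 13, 6 were higher and 0 lower. Of the 11 tested in the latter groups, 8 were not well above background on any small intestine array and entered the test through colon alone, which fixed their direction. In groups 1 to 8, Hoxa2 was well above background on no small intestine array and Hoxd4 on 1, so both entered through colon alone. Hoxa10 was at 0.69, 0.81 and -5.82 in colon and at -7.26, -6.23 and -6.60 in small intestine, at least 38.2-fold higher on colon 1 and 2. Hoxa13 was at 1.23, 0.70 and -5.94 against -7.28, -6.40 and -6.01, at least 44.4-fold higher. Neither was well above background on colon 3. Hoxb13, which marks the most posterior part of the gut, was at 7.21, 5.59 and -5.80 against -6.62, -3.37 and -1.32 (10.17, standard error 1.47, limma adjusted p = 0.00741).

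Colon 1 and 2 differed from each other at the posterior end of the Hoxd cluster. Hoxd13 was at 2.56, -2.35 and -5.89 in colon and at -7.27, -6.32 and -6.65 in small intestine (at least 24.4-fold higher on colon 1 and 2, adjusted p = 0.0172), and Hoxd10 at -1.13 on colon 1 and -4.91 on colon 2. Hoxb9 was at 2.47, 2.44 and 0.79 against -0.64, -6.33 and -6.01 (6.78, adjusted p = 0.035). Of the small intestine arrays, number 1 alone held Hoxb9 well above background, and colon 3 lay between it and colon 1 and 2. Hoxb9 and Hoxd13 were chosen after their values were seen. In the anterior groups Hoxa7 was at 3.55, 4.39 and 0.13 against -0.92, -0.43 and -1.40 (4.89, adjusted p = 0.00129), while Hoxd4 was higher by 4.003 and Hoxa2 at least 5.28-fold. Hoxc4, Hoxc5 and Hoxc6 had negative differences and did not pass, with Hoxc6 at -4.08, -3.15 and 0.83 against 0.47, 0.56 and -1.26 (-3.54, adjusted p = 0.0132).

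**Figure D4:**
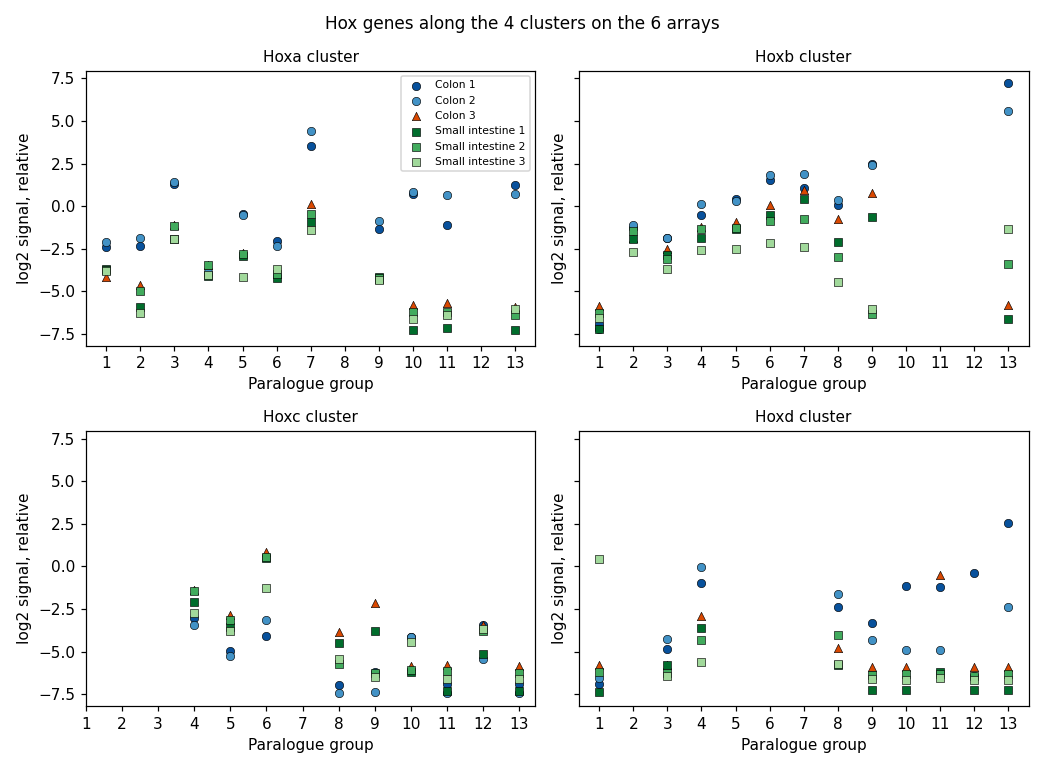
Scaled log2 signal (vertical axes) of the Hox genes on the array by paralogue group (horizontal axes) in the 4 clusters, with 1 point for each gene and array. Circles are colon 1 and 2, triangles colon 3 and squares small intestine, and most small intestine values of groups 9 to 13 are not well above background. Colon 1 and 2 stand above the other arrays for Hoxa9 to Hoxa13 and Hoxb13, and colon 3 lies with small intestine there. Levels of different genes come from different probes and are not comparable.

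Of 25 transcription factors of the gut, 4 were lower in colon 1 and 2 and 3 were higher, against 4.19% and 3.79% of all genes. Gata4, which maintains the identity of the proximal small intestine, was at -5.50, -2.89 and -0.29 in colon and at 1.04, 2.70 and 3.31 in small intestine (-6.54, standard error 0.94, limma adjusted p = 0.00723). Hnf4g, a nuclear receptor of enterocytes, was lower by -4.80, Gata5 by -2.54 and Maf by -5.33. Maf was at -1.36, -0.85 and 5.28 against 3.97, 4.50 and 4.19, with colon 3 the highest. Among the genes higher were Foxd2, described above, and Foxa2, at 3.92, 3.16 and 0.72 against 0.73, -0.004 and -0.11 (3.34). For none of the 7 was colon 3 nearer to colon 1 and 2. Cdx2, which specifies intestinal epithelium, was at 4.43, 5.21 and 5.603 against 5.35, 4.81 and 5.003 (-0.23, adjusted p = 0.623), and Hnf4a at 7.02, 6.98 and 7.63 against 7.72, 7.36 and 7.66.

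Of 14 genes of stem cells and Wnt targets 1 was lower. Olfm4, which marks crypt base cells of the small intestine, was at -6.97, -7.45 and 1.72 in colon and at 2.54, 1.65 and 0.92 in small intestine, at least 100.4-fold lower on colon 1 and 2, and colon 3 was within the range of small intestine. Lgr5, the receptor that marks cycling stem cells, was at 0.04, -0.47 and -0.94 against 0.24, -0.57 and -1.11 (0.26, adjusted p = 0.672). None of 10 genes of cell division passed, with a median of 0.797 and 2 at an unadjusted p under 0.05. Of 28 genes of xenobiotic metabolism 6 were lower and 1 higher (median -1.37), against 4.19% and 3.79% of all genes. Cyp2b10 and Cyp3a11, cytochromes P450 that oxidise drugs, were at least 1414-fold and 1598-fold lower. Cyp4f14, of the same superfamily, was at 4.28, 4.47 and 7.22 against 8.12, 8.25 and 8.60 (-3.95). Sult1a1, a sulfotransferase of phenols, was at 6.72, 6.13 and -1.78 against -1.02, -0.39 and -2.34 (7.68, adjusted p = 0.00104). Cyp2d26, chosen after its values were seen, was at 4.99, 4.32 and 3.63 against 7.67, 8.58 and 8.80, so that all 3 colon arrays were below small intestine.

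Genes of muscle and nerve of the gut wall mostly had positive differences with colon 1 and 2, but few passed the thresholds. How much of the gut wall each sample held was not tested. Of 10 smooth muscle genes 9 had a positive difference and 1, Synpo2, passed, through a probe other than its brightest (median 1.30). Acta2, the smooth muscle actin, was at 6.93, 7.03 and 6.61 in colon and 5.72, 6.57 and 4.74 in small intestine (1.30, adjusted p = 0.117). Of 11 genes of enteric neurons and glia, 10 lay above small intestine on both colon 1 and 2 (median 1.78), where 26.5% of all genes did, and 1, the glial filament Gfap, passed, at least 3.04-fold higher.

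Lymphocyte genes split by lineage. Of 12 genes of B cells and lymphoid follicles 7 were higher in colon 1 and 2 and 0 lower, with a median of 2.99, and with all arrays 10 of the 12 were higher without overlap between the groups, against 12.1% of all genes. Ms4a1, the B cell surface protein CD20, was at -0.16, 0.51 and 2.79 in colon and at -4.06, -6.18 and -6.49 in small intestine (5.76, standard error 0.74, limma adjusted p = 0.00517, and 6.63, adjusted p = 0.0496, with colon 3). Cxcl13, the chemokine that draws B cells into follicles, was at 0.36, 0.29 and 2.22 against -4.02, -6.17 and -6.63 (5.93), and Fcmr, the receptor for IgM, at 0.51, 0.83 and 3.08 against -3.78, -6.17 and -5.71 (5.89). Cr2, the complement receptor of B cells and follicular dendritic cells, chosen after its values were seen, was at 0.51, -0.18 and 2.84 in colon and at -3.66, -5.05 and -4.45 in small intestine. Ms4a1, Cxcl13, Fcmr and Cr2 were each well above background on 1 small intestine array and entered the test through colon alone. Colon 3 was beyond colon 1 and 2 for Cd79b, Ms4a1, Cr2, Cxcl13 and Fcmr. It lay between them for Glycam1, a ligand of lymphocyte homing. Of 6 plasma cell genes 5 were tested and none passed, and 0 had an unadjusted p under 0.05.

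T cell genes were lower, 7 of 11 and 0 higher (median -2.76), and colon 1 and 2 were below every small intestine array for all 11, against 33.6% of all genes. Gzma, a granzyme of cytotoxic lymphocytes, was at -1.30, 0.93 and 3.46 in colon and at 5.33, 5.93 and 6.61 in small intestine (-6.14, standard error 0.70, limma adjusted p = 0.00367). Gzmb was lower by -4.47 (adjusted p = 0.00989), and Cd4 was at 1.58, 1.45 and 3.17 against 4.79, 5.76 and 5.86 (-3.96). All 3 colon arrays were below small intestine for these genes, with colon 3 nearest to it. Of 7 genes of MHC class II, which presents antigen to helper T cells, 4 were lower (median -3.32), where 4.19% of all genes were. H2-DMa was at -1.55, -0.21 and 2.67 against 3.47, 3.11 and 3.16 (-4.13), H2-DMb1 at 0.79, 1.56 and 5.78 against 5.30, 5.02 and 4.54 (-3.78) and Cd74, the invariant chain, at 2.71, 3.87 and 6.79 against 7.04, 6.84 and 6.58 (-3.54). Colon 3 was within or beside the range of small intestine for these 3. Of 11 genes of macrophages and neutrophils on the array 7 were tested and none passed, although 4 had an unadjusted p under 0.05.

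Of 10 epithelial defence genes, 3 were higher in colon 1 and 2. These were Saa1 and Saa2, serum amyloids of the acute phase that the gut epithelium also makes in contact with bacteria, and Nox1, an oxidase of colonic epithelium, which passed through a probe other than its brightest. Saa1 was at 7.49, 7.03 and 9.37 in colon and at -0.16, -0.80 and -0.84 in small intestine. The log2 difference was 7.86 without colon 3 (limma adjusted p = 0.000158, standard error 0.31) and 8.56 (adjusted p = 0.0196) with it. Saa2 was at 7.03, 6.54 and 8.86 against -1.41, -2.45 and -3.26 (9.16 and 9.85). All 3 colon arrays were far above small intestine for both, and colon 3 was the highest. Nos2, the inducible nitric oxide synthase, was at -1.25, 0.03 and 4.96 against 4.41, 1.41 and -0.83 and did not pass (adjusted p = 0.272).

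The stretches of 250 bases before the starts of Saa1 and Saa2 (RefSeq, GRCm38.p6) are shown because the genes moved together on all 6 arrays and lie side by side. In capitals are the letters TTGCNCAA, read by C/EBP factors of the acute phase, searched on either strand and found in 2.99% of all promoters of the table.
Saa1 promoter (chr7:46742981-46743230, minus strand): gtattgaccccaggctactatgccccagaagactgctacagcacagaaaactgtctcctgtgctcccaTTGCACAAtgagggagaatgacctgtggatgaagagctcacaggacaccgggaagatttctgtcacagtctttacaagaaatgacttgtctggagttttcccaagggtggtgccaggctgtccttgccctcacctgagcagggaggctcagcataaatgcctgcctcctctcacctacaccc
Saa2 promoter (chr7:46751583-46751832, plus strand): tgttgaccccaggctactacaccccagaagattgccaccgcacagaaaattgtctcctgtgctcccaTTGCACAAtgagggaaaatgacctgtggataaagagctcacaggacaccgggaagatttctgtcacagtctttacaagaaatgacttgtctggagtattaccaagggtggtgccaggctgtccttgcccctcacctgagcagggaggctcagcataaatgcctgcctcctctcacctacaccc
The stretches were identical at 238 of 251 aligned positions (94.8%), and each held 1 match. The transcripts of the 2 genes are alike too, so that their probes may share signal, and the values of Saa1 and Saa2 are not independent.

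Markers of tissues outside the gut wall were mostly at background. Of 11 pancreatic acinar genes on the array all but 3 were not tested, because they were not well above background on all arrays of either group, and 1, the elastase Cela1, was higher, at 4.95, 3.29 and -3.24 in colon and -1.64, -2.37 and -1.46 in small intestine (5.94, adjusted p = 0.00187). Prss2, Cpa1 and Pnlip, which define acinar cells, lay near background on the 6 arrays, at -7.28 to -5.58. Of 10 gastric genes 1, Gkn1, was higher in colon, at least 5.30-fold. Of 8 adipocyte genes 1, Cidec, which enterocytes also use for lipid droplets, was lower (-5.08). Adipoq, the fat cell hormone adiponectin, was at -4.22, -3.64 and 0.14 in colon and at -0.27, 1.51 and -6.09 in small intestine. Adipoq thus varied within both groups, highest on small intestine 2, colon 3 and small intestine 1. The part of fat in the results was not tested. Of 8 general epithelial genes 1, the brush border protein Vil1, was lower (-2.55), at 6.17, 6.44 and 8.35 against 8.61, 8.79 and 9.18.

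The place of colon 3 was measured over the 1627 genes called with colon 1 and 2 through their brightest probe, 745 higher and 882 lower. Each gene was put on a scale with the small intestine mean at 0 and the mean of colon 1 and 2 at 1. Colon 3 was not used to call these genes. Its median position was 0.234, with quartiles at 0.0468 and 0.45, and the medians were 0.225 for genes higher in colon and 0.238 for genes lower. It was nearer to colon 1 and 2, at a position over 0.5, for 351 genes (21.6%), and 738 genes (45.4%) were below 0.2. The median was 0.188 with the authors' normalized table, 0.279 with normexp background correction and 0.194 after quantile normalization. By list, all 14 brush border genes (median 0.0932), all 15 lipid genes (0.174), 9 of 10 Paneth genes (-0.011), 6 of 7 colonocyte genes (0.0474) and all 13 Hox genes were nearer to small intestine. On the colon side stood 7 of 9 glycosyltransferases (0.704), all 7 B cell genes (1.45), both serum amyloids (1.25) and 4 of 7 T cell genes (0.568).

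The tissue adjacent to adenomas, whole tissue of Apc Min/+ mice on 2 arrays that the comparison did not use, gave a scale for these values. Its median positions were 0.284 and 0.359 over the same genes, with 356 (21.9%) and 550 (33.8%) nearer to colon 1 and 2. For the 9 glycosyltransferases its medians were 0.0781 and 0.145, for the 7 B cell genes 0.179 and 0.249, and for the 2 serum amyloids -0.0279 and -0.224. These arrays and colon 3 are all set against the same small intestine mean. Colon 3 lay about as far from small intestine as the adjacent tissue over all 1627 genes, but not for these 3 lists. For MHC class II the order was the other way, with 0.0579 for colon 3 and 0.623 and 0.753 for adjacent tissue. B3galt5 was at -1.07 and 1.18 on the adjacent arrays and at 4.61 on colon 3, and Saa1 at -0.71 and -1.41 and at 9.37. These positions are given as a description, and what tissue colon 3 holds was not tested.

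**Figure D5:**
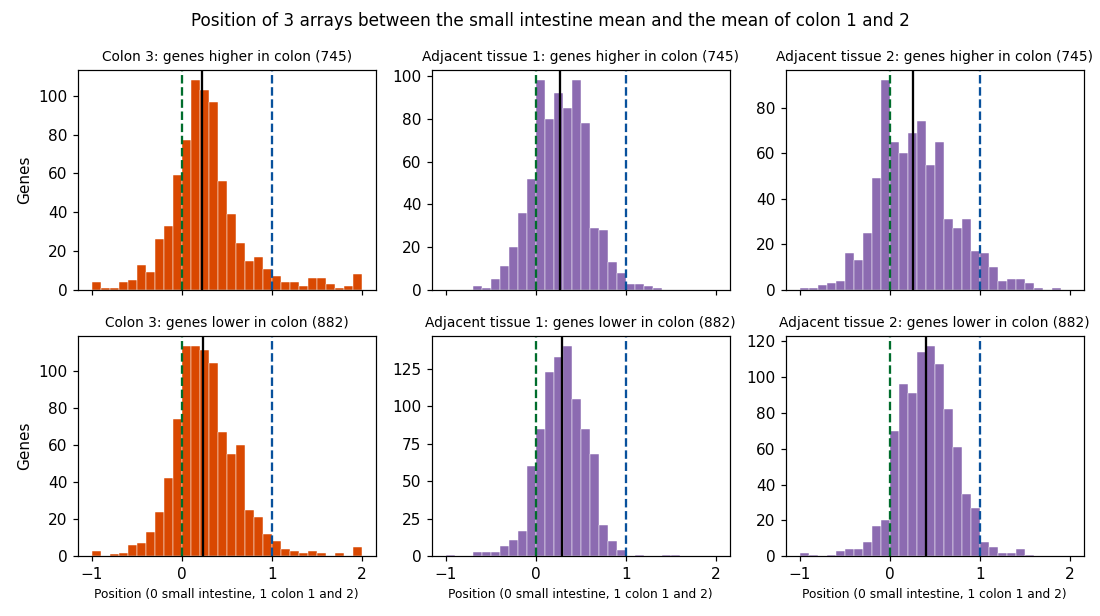
Number of genes (vertical axes) by position of colon 3 and of the 2 arrays of tissue adjacent to adenomas between the small intestine mean (0, green dashed line) and the mean of colon 1 and 2 (1, blue dashed line), for the 745 genes called higher (top) and the 882 called lower (bottom). Black lines are medians, and positions beyond the axis are counted in the end bins. All medians lie between 0.225 and 0.406, nearer to small intestine.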

How the data were processed

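RNA of 3 colon and 3 small intestine samples was measured on 1-colour arrays. The authors deposited scanner output of Feature Extraction 10.7.3.1, from which the processed signal, an intensity with background subtracted, was used. A second deposited table holds log2 values that the authors normalized between arrays by a method not stated, which served as an alternative. Its 21 columns of the authors' own comparisons (fold scores and p-values) and 28 columns of flags and detection were not used.

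Without controls and outlier spots, signals were log2 transformed, scaled by subtracting each array's 75th percentile over non-control probes, and averaged over the spots of each probe. Names came for 26576 of 55681 probes from a RefSeq accession and for 3099 from a symbol in the RefSeq table, and 26006 kept the file's name. Probes that all arrays of either group measured well above background were tested with limma 3.58.1 (lmFit, eBayes) in R 4.3.3, with Benjamini-Hochberg adjustment over the probes tested. Each gene was read from its brightest probe. For bounds, the dimmer tissue was given, on each array, the lowest signal that was well above background or the probe's own signal if higher.

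Groups came from the sample labels. The labels do not say that replicates are separate animals, so p-values measure the spread between these samples. Members, lists (35 lists, 421 names) and rules were chosen with earlier results of these data known. Named were every gene called with all arrays, then with colon 1 and 2 in each direction the 10 largest measured differences, the 5 largest bounds and up to 3 members of each list (2 in the other direction), beside genes described after their values were seen. Defa17, Defa20, Defa22, Defa24, Muc3, Cldn25, Ly6g and Amy2b were not found on the array. Some genes that the rule would name are not reported here. In simulated data 50 probes were changed by each of 2, 3, 4 and 6 log2 units. With all arrays (27284 probes) the fit recovered 18%, 52%, 78% and 90% of them. With colon 1 and 2 (30521 probes) it recovered 0%, 34%, 68% and 82%, with 0 false calls in either. With the spread cut to 0.25 of its size it recovered 96% to 100% with all arrays and 100% with colon 1 and 2. In the data 12274 of 30521 probes had an unadjusted limma p under 0.05. The adjustment was thus stricter in the simulation, whose shares are not those of the data. The number of arrays and the spread between them limit the precision. Alternatives were the authors' table, normexp (offset 50), quantile normalization, other filters, all 5 groups in the fit, an intensity trend, array weights, slide or replicate blocks, other thresholds, the mean of a gene's probes and each array left out.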

Additional observations from a re-analysis of the deposited data

How the results depend on the processing

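With all arrays, 1 gene was higher in colon and 1 lower. The counts were 3 and 2 with the authors' table, 3 and 4 with normexp, 3 and 6 after quantile normalization, 1 and 0 with probes well above background on every array, 324 and 599 with all 5 groups in the fit, 1652 and 2280 with array weights (0.149 for colon 3 against 0.574 to 8.83), 0 and 0 with the slide as a block, and 50 and 81 at an adjusted p of 0.05. The share of calls that were higher was 50% in the comparison as reported, 60% with the authors' table, 42.9% with normexp and 33.3% with quantile normalization. Leaving out each array gave 0 to 857 higher and 0 to 947 lower, the highest without colon 3. With colon 1 and 2, 857 were higher and 947 lower. The counts were 381 and 544 with no filter, 533 higher with the stricter filter, 1797 and 1864 with all 5 groups, 1876 and 1885 with array weights, 332 and 457 with the slide as a block, and 2419 and 2250 at an adjusted p of 0.05. Leaving out each array gave 115 to 848 higher and 192 to 1055 lower, and where 1 colon array was left it was assumed to vary like small intestine. Apart from the replicate block, the other alternatives stayed within 1.5 times these counts. The genes called were not all the same, however. Of the 857 higher with colon 1 and 2, 514 were also called with the authors' table and 515 with normexp. Of the 947 lower, 756 and 873 were. Quantile normalization moved the median difference of all probes to 0.0665 from -0.0427. The cause was not tested.

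The replicate numbers were not taken to pair the samples, since the deviations of same-numbered arrays had correlations of 0.165, 0.0243 and 0.227. In a fit with these numbers as the replicate block, 0 and 0 genes passed with all arrays, and 273 higher and 434 lower with colon 1 and 2. Of the named genes, Fabp6, whose probe was saturated on small intestine 1, changed sign. Its log2 difference was 1.52 with all arrays, -0.98 without small intestine 3 and -1.64 without colon 3, and ranged up to 4.86 with single arrays left out. With colon 1 and 2 it was -1.64, and it ranged from -4.15 to 1.69, the latter without small intestine 1. Low signal on colon 3 leaves dim genes there without a measured level.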
